A study of Mus musculus with 58 samples.

Results

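BMAL1 and CLOCK form a DNA-binding pair that activates transcription in the circadian clock, and the sites of both proteins were examined at 10 genes of glucose transport, glycolysis, glycogen turnover and the insulin response. The genes were chosen by their presence, with a BMAL1 peak, in deposited peak lists from NIH3T3 fibroblasts or mouse liver, so the presence of peaks at them is a description and not a result. They comprised Slc2a2, Slc2a5, Pfkl, Pfkfb3, Ldha, Pcx, Gys2, Pygl, Irs2 and Foxo3. Of 463 NIH3T3 BMAL1 peaks 5 carried 1 of these names, as did 15 of 1254 liver BMAL1 peaks. CLOCK peaks were added by position where their centre lay within 5 kb of such a peak, which gave 2 of 1016 in NIH3T3 cells and 1 of 439 in liver, and so 23 of 3172 entries in all.

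The NIH3T3 line, a mouse embryonic fibroblast line, had been synchronised with 100 nM dexamethasone for 30 min. BMAL1 ChIP-seq comprised 7 libraries, each of another time between 12 and 38 h after treatment, and CLOCK ChIP-seq comprised 6 between 18 and 38 h. Liver CLOCK was 1 sample, called pooled in its title, from C57/BL6 mice aged 12 to 14 weeks and fed ad libitum in a light-dark cycle, with no time of day given. For BMAL1 in liver the authors had reprocessed published libraries of zeitgeber time 6, and the labels do not describe those animals. The other libraries of the 58 in the series (RNA, RNA polymerase II and input) were not analysed here. The lists gave positions on the mouse build mm9 without heights, scores or values per library, so no replicate error, depth or test could be attached to a peak.

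Blood glucose is held steady by the liver, which stores glucose as glycogen after a meal and releases it, or makes it anew from pyruvate and lactate, during fasting. Insulin shifts this balance towards storage through the insulin receptor substrates and by keeping FOXO factors out of the nucleus. The clock is known to time these pathways in the liver. BMAL1 and CLOCK bind the E-box, whose classical form is CACGTG.

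The RefSeq promoter windows of 4 of the genes held CACGTG before the start site. The 250 bases before that start are shown because the BMAL1 peaks of Ldha, Pfkfb3 and Pcx lay in or next to them, with Irs2 as the gene whose peak was in the NIH3T3 list alone. They are written 5′ to 3′ on the strand of the gene, on build GRCm38.p6, with CACGTG in capitals. Ldha lies at chr7:46845554-46845803 (plus strand), Pfkfb3 at chr2:11502091-11502340 (minus), Pcx at chr19:4510222-4510471 (plus) and Irs2 at chr8:11008930-11009179 (minus).
Ldha: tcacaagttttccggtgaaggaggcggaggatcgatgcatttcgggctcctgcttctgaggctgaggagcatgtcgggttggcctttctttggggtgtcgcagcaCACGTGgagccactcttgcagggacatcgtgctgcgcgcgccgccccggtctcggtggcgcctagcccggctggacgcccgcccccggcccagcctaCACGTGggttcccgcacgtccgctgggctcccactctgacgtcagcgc
Pfkfb3: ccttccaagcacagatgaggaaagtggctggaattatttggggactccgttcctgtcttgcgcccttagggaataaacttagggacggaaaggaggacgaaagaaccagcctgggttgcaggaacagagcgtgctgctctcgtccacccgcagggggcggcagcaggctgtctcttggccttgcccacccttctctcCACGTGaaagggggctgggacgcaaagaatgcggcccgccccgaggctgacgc
Pcx: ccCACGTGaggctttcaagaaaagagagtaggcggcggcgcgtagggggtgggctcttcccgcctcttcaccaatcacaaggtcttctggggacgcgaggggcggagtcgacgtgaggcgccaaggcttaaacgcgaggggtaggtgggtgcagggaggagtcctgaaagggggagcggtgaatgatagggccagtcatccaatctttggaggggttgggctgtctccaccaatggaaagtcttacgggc
Irs2: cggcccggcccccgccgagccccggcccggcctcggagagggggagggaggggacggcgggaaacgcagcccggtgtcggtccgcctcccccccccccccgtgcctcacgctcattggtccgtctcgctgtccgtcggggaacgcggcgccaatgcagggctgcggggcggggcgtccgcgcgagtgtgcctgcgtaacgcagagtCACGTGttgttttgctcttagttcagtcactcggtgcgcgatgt

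BMAL1 had peaks in both contexts at Pcx, Pfkfb3 and Foxo3, in liver alone at Slc2a2, Slc2a5, Pfkl, Ldha, Gys2 and Pygl, and in NIH3T3 cells alone at Irs2. Both transporter genes and both glycogen genes were on the liver side. The liver list is the longer one, with 985 genes named beside 345 in the NIH3T3 list. The place of these few chosen genes is therefore not read as a trait of their roles. Of the 5 NIH3T3 peaks 4 had a liver BMAL1 peak with its centre within 500 bp, beside 59.2% of all NIH3T3 BMAL1 peaks. Of the 15 liver peaks 4 had an NIH3T3 partner, beside 21.8% of all liver peaks. All 4 pairs, 2 at Pcx and 1 each at Pfkfb3 and Foxo3, had the same start and end in both lists. The 20 entries therefore covered 16 different intervals. Over the whole lists 263 intervals were identical, beside 274 NIH3T3 and 273 liver peaks with a partner within 500 bp. Identical ends are therefore not read as a trait of these genes. The 8 entries of the 4 pairs stood among the opening 263 lines, over which the NIH3T3 and liver files were the same line by line, and the other 12 stood after them. The sharing counts are therefore not read as agreement between independent calls in the 2 contexts. How the common block of lines was made cannot be told from the files.

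The authors' distances ran from 26 bp to 33419 bp from the annotated start site. In liver 7 of the 15 peaks lay within 1 kb of it, beside 44.7% of all liver peaks, and in NIH3T3 cells 3 of 5 did, beside 71.7%. The median distance was 1425 bp for the liver peaks of these genes and 2182 bp for all liver peaks, and 506 bp and 219 bp in NIH3T3 cells. In liver 8 peaks lay before the start the authors assigned and 7 after it. All 5 NIH3T3 peaks lay before the start the authors assigned, but 4 of these 5 were the same intervals as liver peaks. The share of all peaks that lay before a start was not counted, so no difference between the contexts is read from these numbers. The peaks after the assigned start belonged to Slc2a2, Slc2a5, Pfkl and Gys2, and none of these genes was in the NIH3T3 list. Whether those peaks lay in an exon or an intron was not determined, since no annotation of build mm9 was used here.

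**Figure D1:**
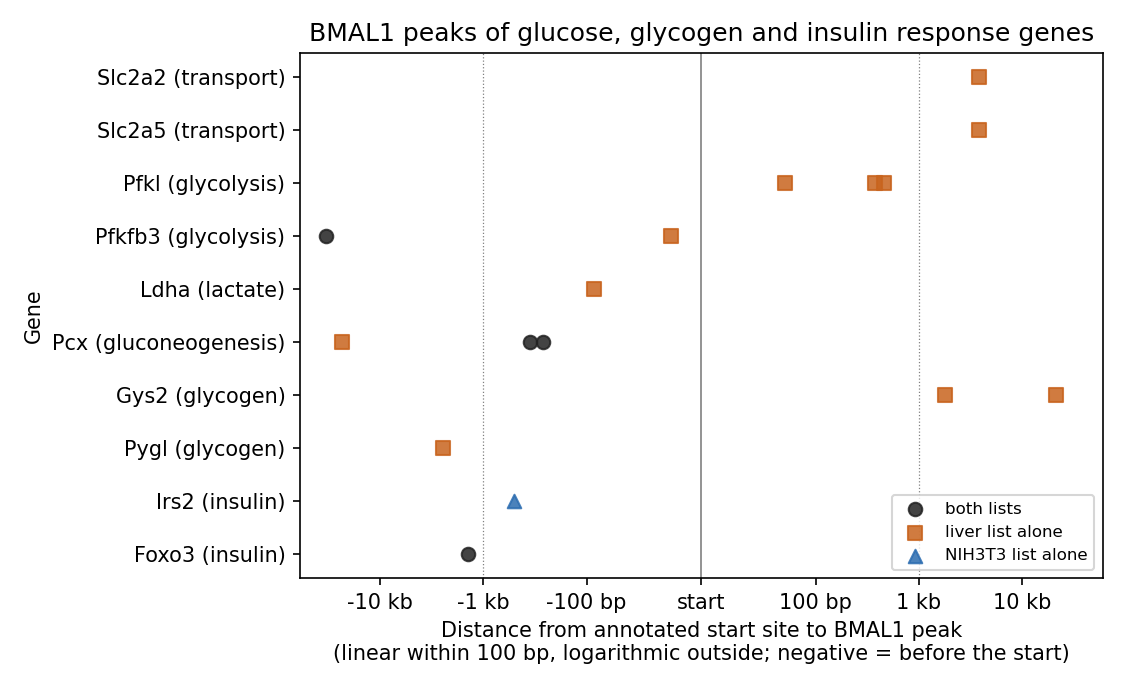
Signed distance in bp from the annotated start site (x axis, linear within 100 bp and logarithmic outside) to each of the 16 different BMAL1 peak intervals, by gene (y axis); shapes and colours mark the list or lists that held the peak, and dotted lines mark 1 kb. The peaks after the start, from 73 bp in Pfkl to 21407 bp in Gys2, were in the liver list alone.

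Slc2a2 encodes GLUT2, the main glucose transporter of the hepatocyte, and Slc2a5 encodes GLUT5, a fructose transporter. Each had a single peak, in liver, and both lay a similar way past the start site. The Slc2a2 peak, at chr3:28624184-28624233, was 3769 bp after the start, and its nearest NIH3T3 BMAL1 peak was 55819 bp away. The Slc2a5 peak, at chr4:149506867-149506916, was 3836 bp after the start, with the nearest NIH3T3 BMAL1 peak 450834 bp away. Slc2a5 was the 1 gene of the 10 with a liver CLOCK peak. That CLOCK peak covered chr4:149506763-149507012, its centre stood 4 bp from the BMAL1 centre, and it contained all 50 bp of the BMAL1 interval. No NIH3T3 CLOCK peak lay near either transporter gene, the closest being 1099856 bp from the Slc2a2 peak.

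Pfkl encodes the liver form of phosphofructokinase, which commits glucose to glycolysis. It had 3 liver peaks close together, between 77472074 and 77472504 on chromosome 10, at 73, 372 and 454 bp past the start site. Their centres were 82 and 299 bp apart, and they formed 1 locus when peaks within 1 kb were joined. Pfkfb3 encodes a kinase that makes fructose 2,6-bisphosphate, the activator of phosphofructokinase. Its liver-only peak at chr2:11423730-11423779 stood 26 bp before the start, nearest of the 16 intervals, and its common peak at chr2:11457120-11457175 stood 33419 bp before it, farthest of the 16 from the start the authors used. RefSeq has a second start of Pfkfb3 on GRCm38.p6, 51839 bp farther upstream, so the place of this peak before the gene holds for the authors' start alone. At Pfkfb3 the lists thus had a distant interval in common and differed next to the start the authors used. A peak missing from a list without scores cannot be read as a site without binding. Ldha encodes the lactate dehydrogenase subunit that favours lactate formation. Its liver peak at chr7:54101068-54101164 was centred 94 bp before the start and, at 97 bp, was the widest of these intervals.

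Pcx encodes pyruvate carboxylase, the first enzyme of glucose synthesis from pyruvate. It had 2 peaks common to both contexts, at chr19:4510092-4510141 and chr19:4510186-4510235, 356 and 262 bp before a start site, with centres 94 bp apart. A further peak, in liver alone, lay at chr19:4570988-4571037 and was placed 23307 bp before another start site of the gene. That start lies farther downstream, so this peak lay after the start site of the common peaks. The authors' distances put these start sites 83847 bp apart on mm9. The 2 RefSeq starts of Pcx on GRCm38.p6 were the same 83847 bp apart, so the start nearest to the common peaks could be matched to the promoter shown above. The first 2 peaks were also the only ones of a metabolic enzyme gene among the 10 with CLOCK beside them.

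Gys2 encodes the liver glycogen synthase and Pygl the liver glycogen phosphorylase, the enzymes that build and break down glycogen. Both had liver peaks alone, and none was within 1 kb of the start. The Gys2 peaks lay at chr6:142419818-142419867 and chr6:142400198-142400247, 1787 and 21407 bp past the start site. The Pygl peak lay at chr12:71334892-71334941, 2441 bp before the start. Their nearest NIH3T3 BMAL1 peaks were more than a megabase away, the closest being 2526836.5 bp from the Pygl peak.

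Irs2, an adaptor that carries the signal of the insulin receptor, was the 1 gene found in NIH3T3 cells alone. Its peak at chr8:11008938-11008992 lay 506 bp before the start the authors assigned, and the nearest liver BMAL1 peak was 116828.5 bp away. Foxo3 encodes a FOXO factor that insulin signalling holds inactive. Its common peak at chr10:41997949-41998025, 77 bp wide, lay 1425 bp before the start.

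CLOCK stood beside BMAL1 at 3 of the 10 genes, and nowhere in both contexts. The share of all BMAL1 peaks near CLOCK peaks of both lists was not counted. The absence is therefore not read as a trait of these genes. In NIH3T3 cells a CLOCK peak at chr19:4510085-4510134 was centred 7 and 101 bp from the common Pcx peaks and overlapped the first of them by 43 bp. A CLOCK peak at chr10:41998002-41998051 was centred 39.5 bp from the Foxo3 peak and overlapped it by 24 bp. These were 3 of 5 NIH3T3 BMAL1 peaks, beside 22.9% of all NIH3T3 BMAL1 peaks, and 3 of 15 liver BMAL1 peaks, beside 6.94% of all liver peaks, with an NIH3T3 CLOCK peak within 5 kb. The 3 peaks in each count are the same intervals, so the counts are not independent. Of these 3, 2 are the neighbouring Pcx peaks beside the same CLOCK peak, so that site enters each count more than once. In liver, CLOCK was at 1 of 15 BMAL1 peaks, that of Slc2a5, beside 4.63% of all liver peaks, and no NIH3T3 peak of the genes had a liver CLOCK peak, beside 10.8%.

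The peaks fell into near and far ones, with nothing between 101 bp and 47253 bp. The farthest CLOCK peak inside 5 kb was the one 101 bp from the second Pcx peak. The closest outside it was a liver CLOCK peak 47253 bp from the Gys2 peak nearest to its start, followed by the NIH3T3 CLOCK peak of the Pcx promoter, 60903 bp from the third Pcx peak. The promoter peaks of Ldha and Pfkfb3 and the 3 of Pfkl were far from CLOCK peaks of either list, the closest being 455450 bp from a Pfkl peak. The liver CLOCK sample has no time label, so a liver BMAL1 peak without CLOCK cannot be read as a site without the protein.

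**Figure D2:**
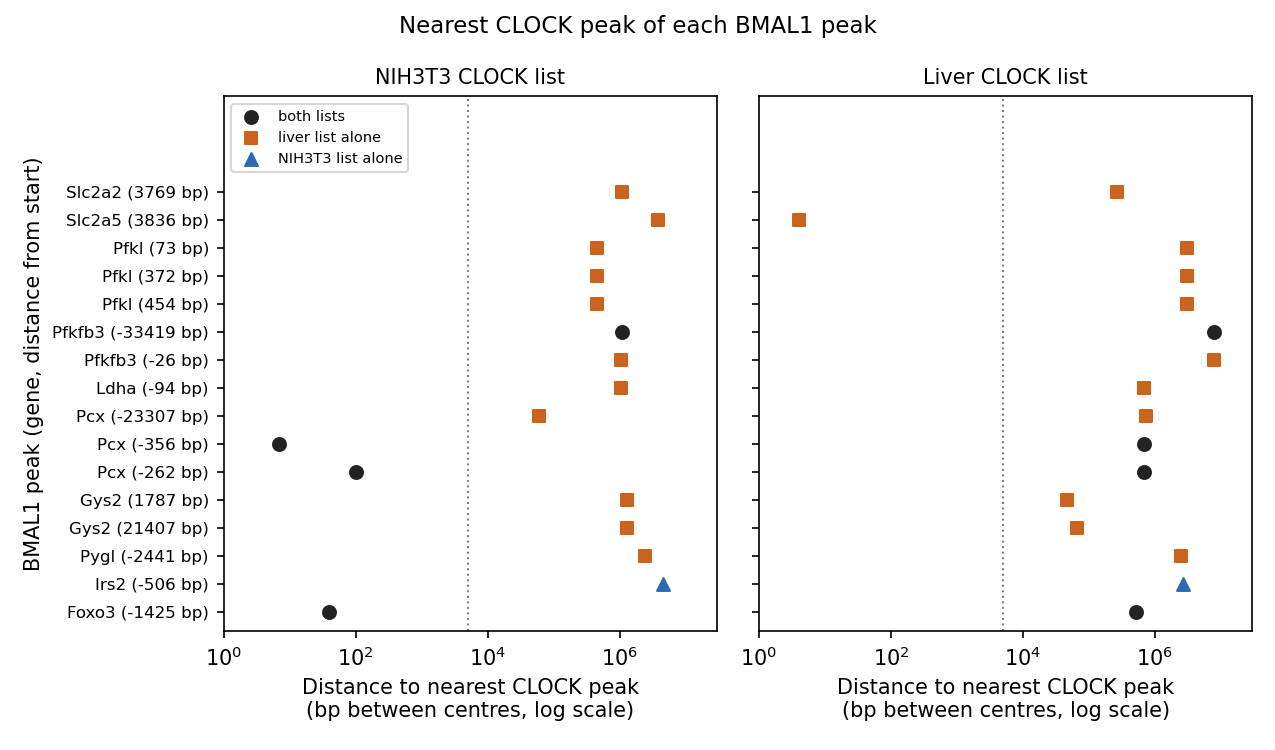
Distance in bp between centres (x axis, log scale) from each of the 16 BMAL1 peak intervals (y axis, gene and signed distance from its start) to the nearest peak of the NIH3T3 CLOCK list (left) and of the liver CLOCK list (right); the dotted line marks 5 kb. The Pcx promoter peaks and Foxo3 are near a CLOCK peak on the left and Slc2a5 on the right, at 4 to 101 bp, and all other distances are 47253 bp or more.

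CACGTG was present in 4 of 12 RefSeq promoter windows of the genes, each from 250 bases before to 50 after a start site, beside 7.15% of all 32851 windows, with both strands searched. The table matched 9 of the 10 genes, some with 2 starts, and Gys2 had no entry. Because the genes were chosen for peaks of BMAL1, which binds CACGTG, this count is partly set by that choice. The share over promoters of all genes with a BMAL1 peak was not counted. Ldha was the gene with 2 copies in 1 window, a feature of 0.594% of all windows. The variant CACGTT was in none of the 12 windows and in 4.68% of all. The variant CACGCG was in 3 windows, 2 of Ldha and 1 of Foxo3, and in 9.27% of all. Tandem E-boxes, that is any 2 of these 3 forms 6 or 7 bases apart, were in none of the 12 windows and in 0.0791% of all. In the 12 windows no copy of a motif overlapped another.

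The printed promoters of Ldha, Pfkfb3 and Pcx held CACGTG in or at the edge of the BMAL1 interval, when the authors' distance was counted from the RefSeq start. The Pcx copy lay inside an interval, and the copies of Ldha and Pfkfb3 straddled its ends. For Ldha the 2 copies began 145 and 48 bases before the start. The interval reached from 142.5 to 45.5 bases before it, so that it ran from the middle of 1 copy to the middle of the other. RefSeq has a second start of Ldha, 1278 bp farther downstream, whose window held no CACGTG, so this placement holds for the first start alone. For Pfkfb3 the copy began 53 bases before the start and its middle was 24.5 bp from the peak centre, at the outer end of the interval, which reached from 51 bases to 1 base before the start. For Pcx the copy began 248 bases before the start, 16.5 bp from the centre of the second common peak and 110.5 bp from that of the first, which lay in bases that were not searched. For Irs2 the copy began 44 bases before the RefSeq start. Its distance from the Irs2 peak is not given, since it would rest on whether the authors used that start. Whether the Irs2 peak lies inside or outside the printed bases was not determined. The Pfkfb3 and Ldha peaks were the 2 liver peaks of the genes that were centred in a window. Both had CACGTG within 50 bp of the centre, beside 43.2% of 257 such liver peaks in all. The Ldha distance, 48.5 bp, was close to that limit, and no other limit was tried. For each peak the nearest copy over all windows of its gene was taken. Apart from Pcx, whether the authors used the RefSeq start was not tested, and no sequence of the mm9 intervals themselves was used.

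**Figure D3:**
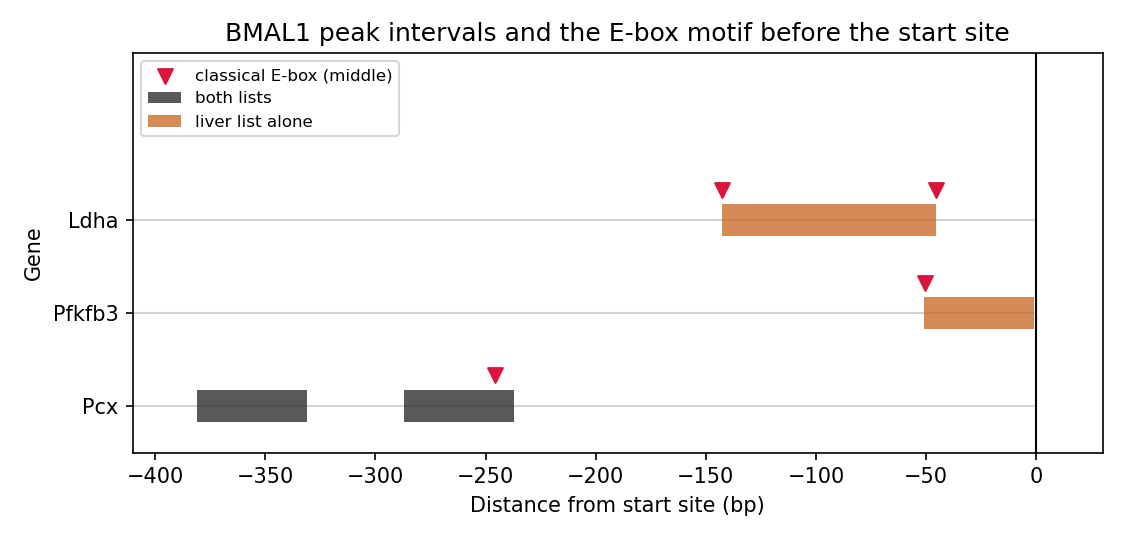
Position in bp relative to the start site (x axis, start at 0) of BMAL1 peak intervals within 1 kb (bars) and of the middle of each CACGTG (triangles) for 3 genes (y axis); bar colours mark the lists. Intervals use the authors' distances and CACGTG the RefSeq starts; the Pcx copy falls inside a bar, both Ldha copies have their middle at the ends of the bar, and the Pfkfb3 copy has its middle at the outer end.

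A wider list of 134 genes of glucose and insulin pathways, which includes the 10, was searched for BMAL1 peaks in the same way. In liver 18 of them had a peak, beside 3.79% of 21900 protein-coding genes, and in NIH3T3 cells 8 had one, beside 1.40%. Because the 10 genes were taken for their peaks, these counts are fixed in part by that choice, and 9 in liver and 4 in NIH3T3 cells were left without them. In the role groups the counts were small and partly set by the same choice. Among 27 glycogen genes 4, of which 2 are among the 10, had a liver peak and none an NIH3T3 peak. Beside Gys2 and Pygl these were Gbe1, the glycogen branching enzyme, with a peak 53 bp before its start, and Ppp1r3c, which brings a phosphatase to glycogen, with peaks 132 bp before and 5085 bp after its start. Among 11 transport genes 3, of which 2 are among the 10, had a liver peak and none an NIH3T3 peak, the third being Slc2a9, a urate transporter of the glucose transporter family, with peaks 1930 and 2483 bp past its starts. With 1.40% of all genes in the NIH3T3 list, groups of this size without a peak there are near the level of all genes.

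Genes found in both contexts numbered 5 of the 134, among them Pcx, Pfkfb3, Foxo3 and G6pc3. Pcx, Pfkfb3 and Foxo3 had been chosen for their BMAL1 peaks, so this count is partly set by that choice. The share of all protein-coding genes found in both lists was not counted, so the count is not read as high or low. The peak of G6pc3, a glucose 6-phosphatase of many tissues, lay 21 bp before the start and was the same interval in both lists. In the insulin signalling group of 32 genes 3 had a liver peak and 3 an NIH3T3 peak, with Pik3r1 among those in liver alone and Irs2 and Pik3cb in NIH3T3 cells alone. Pik3r1 and Pik3cb encode a regulatory and a catalytic subunit of phosphoinositide 3-kinase, and their peaks lay at least 2661 bp and 5400 bp from the start.

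Among 27 glycolysis genes 3 had a liver peak, among them Pfkl and Pfkfb3, and Pfkfb3 was the 1 with an NIH3T3 peak. Among 18 genes of lactate and pyruvate handling Pdk1, a kinase that holds back pyruvate dehydrogenase, had a liver peak 313 bp past its start beside that of Ldha. Mpc1, a subunit of the mitochondrial pyruvate carrier listed under its older symbol Brp44l, had an NIH3T3 peak 375 bp before its start. Of 19 genes grouped under gluconeogenesis, where Foxo3 was counted, 3 had peaks, all of them in both contexts, and 2 of these are among the 10. Of all protein-coding genes 3.79% had a liver peak and 1.40% an NIH3T3 peak, and the share with both was not counted. Counts this small, partly set by the choice of genes, are not read as a trait of any role group. None of the peaks of the 11 genes outside the 10 had a CLOCK peak within 5 kb. Of all NIH3T3 BMAL1 peaks 22.9% had an NIH3T3 CLOCK peak and 10.8% a liver CLOCK peak that near. Of all liver BMAL1 peaks 6.94% and 4.63% did. With so few peaks, their absence is not read as a trait of these genes. The nearest to these genes was an NIH3T3 CLOCK peak 50231 bp from the Pik3cb peak, and the nearest liver CLOCK peak was 226737 bp from a Ppp1r3c peak.

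**Figure D4:**
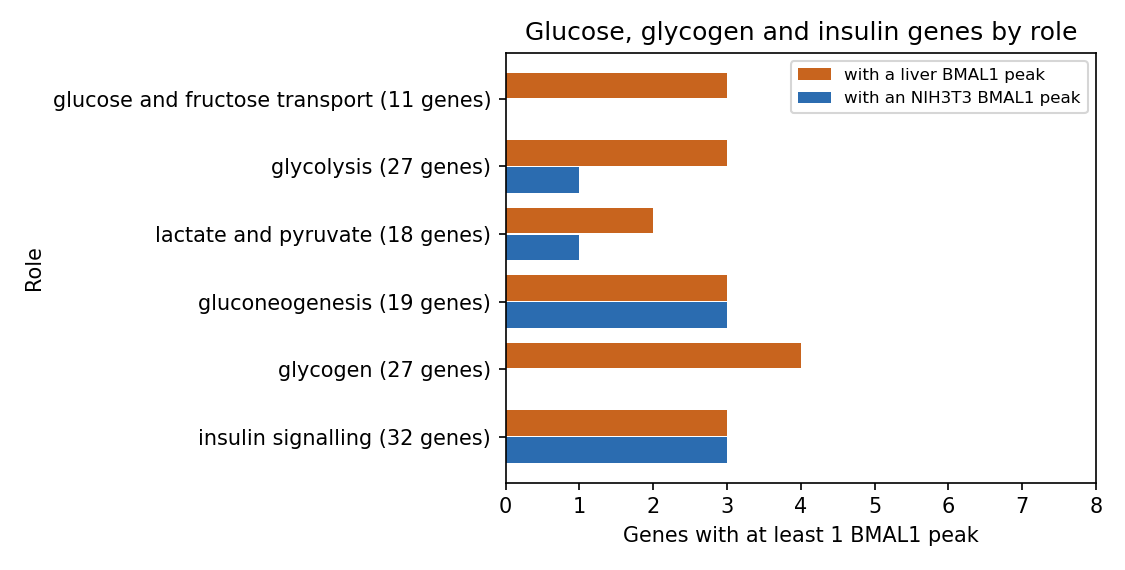
Number of genes with at least 1 BMAL1 peak (x axis) in the liver list and the NIH3T3 list (bar colours), by role (y axis, with the number of genes searched). The bars include the 10 genes chosen for their peaks (2 of 4 with liver peaks in the glycogen group and 2 of 3 in the transport group), beside 3.79% of all protein-coding genes with a liver peak and 1.40% with an NIH3T3 peak, and differences between groups were not tested.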

How the data were processed

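ChIP-seq peak lists for BMAL1 and CLOCK in NIH3T3 cells and mouse liver were used as deposited. The values the authors deposited were peak starts and ends and, for BMAL1, a gene and a signed distance in bp. Bowtie, SAMtools, bedtools and build mm9 are named, per the submitters' processing notes, with no statement of what each was used for. The sources used here do not state the peak caller, its thresholds or any pooling of libraries. The NIH3T3 BMAL1 list is named for 20 h alone, although the labels tie it to all 7 libraries. No list gives a score or a read count, so depth and precision per peak are unknown.

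Starts are printed counting from 1, and peaks were compared by the distance between centres. The distance sign was read as before (negative) or after the start on the gene's strand. Read so, 48 of 59 NIH3T3 genes and 96 of 127 liver genes with several peaks had peaks that gave the same start within 1 bp, and with the opposite sign none had. CLOCK peaks were linked by position, since the gene column of the NIH3T3 CLOCK list puts Pcx on chromosome 2 and Foxo3 on chromosome 6. Symbols were matched to RefSeq (GRCm38.p6) for 330 of 345 NIH3T3 and 914 of 985 liver names, and promoter windows came from RefSeq. Coordinates of the builds were not mixed.

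All 10 genes are named with every peak, and of the other pathway genes those with a peak, apart from a few that are not reported here. The genes, the pathway list and the alternatives were chosen with earlier results of these data known. No test was run, because the genes were chosen from these lists. Counting and motif search were tested on simulated data. Python 3.11.15, NumPy 2.4.6, pandas 2.3.3 and matplotlib 3.10.9 were used.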

Additional observations from a re-analysis of the deposited data

How the results depend on the processing

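Counts were recomputed under 34 alternatives for 12 results, and 27 stayed within 1.5 times the count reported. The sharing of BMAL1 peaks between contexts was 4 in either direction at 200 and 1000 bp, by overlap and by identical intervals. All 4 pairs were identical, and every other peak was at least 33393 bp from the other BMAL1 list. These alternatives could therefore not change the count. The CLOCK counts were the same from 500 bp to 10 kb, and asking for overlap left out 1 Pcx peak. No CLOCK distance lay between 101 and 47253 bp, so the distance limits could not change the CLOCK counts. Part of the 27 was thus fixed in advance and is no measure of stability. The promoter count was the one that moved most with its limit. With promoters of 200 bp it was 0 of 5 peaks in NIH3T3 cells and 3 of 15 in liver, and with 5 kb it was 12 of 15 in liver. Pathway genes with a peak within 1 kb numbered 4 in NIH3T3 cells and 9 in liver, and without the 10 genes they numbered 4 and 9 at any distance, where fewer genes were searched. Joining peaks within 1 kb gave 4 loci in NIH3T3 cells and 12 in liver. No paired analysis was possible because the lists hold no values per library.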

Other observations

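The gene names in the NIH3T3 CLOCK list stood near, but often not on, the line of the peak they belong to by position. For Pcx the name was 1 line above the peak, which stood on line 177 of 1016, and for Foxo3 it was 20 lines above the peak on line 624. Of 85 CLOCK peaks in the list with a BMAL1 peak of either context within 500 bp, 71 had the gene of that BMAL1 peak somewhere in the name column. The name was on the same line for 33 of them and within 30 lines for 70. The lines were not in chromosome order, and 69 of the 85 peaks stood in the first 200 lines, among them that of Pcx and not that of Foxo3. The sources used here do not say what orders the list, so a line number was not read as strength. The limits of 30 and 200 lines were chosen after the values were seen.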
